A study of Drosophila melanogaster with 2 samples.

Results

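The 426 peaks described here are places inside genes, away from their start sites, where the transcription factor Eip93F was found on chromatin of whole Drosophila melanogaster prepupae. They are 12.5% of the 3401 reproducible peaks of a chromatin immunoprecipitation experiment (Wilson 95% interval 11.5 to 13.7%). A peak was counted as far intronic when its summit lay within a gene, outside every annotated exon, more than 500 bp from any transcription start site (TSS) and more than 5000 bp from the nearest protein-coding TSS. The animals were of the strain Eip93F-MiMIC-GFP, in which an eGFP exon placed in an intron of Eip93F makes an Eip93F-GFP fusion from the gene's own locus. They were a pool of males and females, their exact age is given as unknown, and 2 biological replicates were taken with no second condition. Chromatin was sheared by sonication to 200 to 800 bp and precipitated with an antibody against GFP. Within the reproducible set the rule uses position alone, so sequence is a measurement that it did not use. The set itself was chosen on signal and its agreement between the 2 replicates. Signal and recurrence are therefore only compared between classes of peak within the set.

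Eip93F encodes E93, a helix-turn-helix factor that ecdysone induces late in larval and prepupal life and that directs the passage from larval to adult tissue. Ecdysone acts through a receptor of EcR and its partner, which switches on early genes such as Eip74EF and Eip75B, and these in turn set off a timed series of nuclear receptors. In flies, long introns of developmental regulators often hold enhancers, which can lie far from the promoter they act on. A summit in an intron therefore does not name the gene it serves.

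The sequences at the summits are shown for 4 of the 5 strongest far intronic peaks, for 3 further genes of the ecdysone response, and for 4 peaks whose window held the GATA word more than once, which were picked after the words had been counted. Each line gives 50 bp to either side of the summit, on the forward strand of the arm, 5′ to 3′, from the RefSeq release 6 genome (dm6). Capitals mark the GATA word, AGATAAG or TGATAAG on either strand, which is the core bound by GATA factors.
CG32486, chr3L:3060753-3060853: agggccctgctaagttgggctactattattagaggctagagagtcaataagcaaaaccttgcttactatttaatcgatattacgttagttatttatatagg
Hr4, chrX:1951880-1951980: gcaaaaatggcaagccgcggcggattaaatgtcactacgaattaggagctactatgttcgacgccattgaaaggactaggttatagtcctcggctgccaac
Eip75B, chr3L:18011861-18011961: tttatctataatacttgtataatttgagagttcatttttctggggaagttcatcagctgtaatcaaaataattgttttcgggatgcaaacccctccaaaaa
tai, chr2L:9205204-9205304: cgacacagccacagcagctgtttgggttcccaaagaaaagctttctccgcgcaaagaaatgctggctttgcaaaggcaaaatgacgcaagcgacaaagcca
Eip74EF, chr3L:17611499-17611599: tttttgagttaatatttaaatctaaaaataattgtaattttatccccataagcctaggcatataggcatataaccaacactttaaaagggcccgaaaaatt
Eip93F, chr3R:22003657-22003757: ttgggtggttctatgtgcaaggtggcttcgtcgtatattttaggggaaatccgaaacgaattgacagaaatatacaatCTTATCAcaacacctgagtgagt
E23, chr2L:3338694-3338794: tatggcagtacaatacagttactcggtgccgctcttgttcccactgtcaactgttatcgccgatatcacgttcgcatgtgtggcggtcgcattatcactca
klar, chr3L:511808-511908: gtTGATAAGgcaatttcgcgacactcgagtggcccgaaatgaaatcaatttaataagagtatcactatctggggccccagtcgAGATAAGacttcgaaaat
CG1677, chrX:7301590-7301690: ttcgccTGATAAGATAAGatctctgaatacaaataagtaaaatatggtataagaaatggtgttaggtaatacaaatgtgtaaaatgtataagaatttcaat
Snoo, chr2L:7926562-7926662: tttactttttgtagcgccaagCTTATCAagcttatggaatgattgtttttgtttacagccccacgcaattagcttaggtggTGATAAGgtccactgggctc
Fhos, chr3L:8777616-8777716: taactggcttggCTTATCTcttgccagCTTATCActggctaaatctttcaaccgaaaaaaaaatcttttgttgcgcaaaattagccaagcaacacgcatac
The windows of the strong peaks in CG32486, Hr4, Eip75B and tai held no GATA word, nor did those of Eip74EF and E23. The Eip93F window held it once, on the reverse strand. In CG1677 the 2 words overlap and share bases. The 4 windows with 2 words came from peaks with signals of 202 (klar), 175 (CG1677), 110 (Snoo) and 97.9 (Fhos).

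The label of these peaks was checked against the annotation. Of the 426 summits, 369 lay in an intron of the canonical transcript of a protein-coding gene, and 14 lay in non-coding genes alone. The others lay in coding genes, outside the canonical transcript. Spans of 2 or more genes covered 40 of them. A non-coding TSS lay within 5000 bp of 48. At the edge of the distance limit, the 5 innermost members were in CG2865 (5004 bp from a coding TSS, signal 99.4), vri (5035 bp, 119), ush (5035 bp, 127), cv-c (5038 bp, 128) and Alh (5058 bp, 188). Just outside it were intronic peaks in tna (4987 bp, 164), Nuak (4950 bp, 151), CG46339 (4946 bp, 95.9), ovo (4934 bp, 135) and Mef2 (4916 bp, 217). The signals on both sides of the limit span a similar range.

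Far intronic sequence held fewer summits per length than the rest of the chromosome arms. It makes up 31.7 Mb, or 23.04% of those arms, and held 13.4 summits per Mb (exact Poisson 95% interval 12.2 to 14.8). The rest of the arms held 28.1 per Mb (27.1 to 29.1), with 2975 peaks in 105.9 Mb. Among the arms the far intronic density ran from 11.7 per Mb on 3R (9.59 to 14.2) through 12.4 on 2R, 13.9 on 3L and 15.1 on the X to 18.7 on 2L (15.0 to 23.1). The intervals of neighbouring arms in this order overlap, and that of 2L lies above that of 3R. Chromosome 4 held none in 0.292 Mb of such sequence, for which the exact Poisson upper bound is 12.6 per Mb. The Y held none either, and none of its peaks of any class were called.

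Density was lower farther from a coding TSS. Between 5 and 10 kb away it was 21.4 summits per Mb (18.8 to 24.4, 231 summits), and between 10 and 20 kb it was 14.7 (12.3 to 17.4, 134 summits). Between 20 and 40 kb it was 10.4 (7.81 to 13.6, 53 summits), and beyond 40 kb it was 1.19 (0.513 to 2.34, 8 summits). Of neighbouring classes, the intervals for 10 to 20 kb and 20 to 40 kb overlap and the others do not. The leading entries of the replicates' own lists followed the same order, with 226, 140, 57 and 9 summits in replicate 1 and 234, 128, 51 and 7 in replicate 2. Repeats moved with distance, since masked bases were 21.7%, 22.9%, 26.0% and 36.7% of these classes of sequence. Over unmasked bases alone the densities were 19.8, 14.0, 9.85 and 1.41 per Mb, and the part of repeats in the rest was not tested. The Y, where no peak was called, held 0.621 Mb of the 6.73 Mb beyond 40 kb.

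The median member lay 9449 bp from a coding TSS, 195 lay beyond 10 kb and 61 beyond 20 kb. The farthest was at 55669 bp, in the non-coding gene lncRNA:CR46006 (signal 245). The other 7 beyond 40 kb were in CG42238 (signal 486), jing (145, 144 and 90.6), ds (120 and 105) and mamo (118). The gene jing encodes a zinc finger factor and ds the cadherin Dachsous. The median signal was 129 at 5 to 10 kb, 126 at 10 to 20 kb, 138 at 20 to 40 kb and 132 beyond.

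Signals of far intronic peaks were set beside those of the rest of the set. Signal is the caller's own score per peak and can be compared only within a list. In whole animals, occupancy in few cells and weak occupancy in many cannot be told apart. Members' signals ran from 89.8 to 815 with a median of 129.2 (quartiles 105.9 and 171.0), against a median of 129.6 and a maximum of 1529 for the 2975 other peaks. The share above the median of the whole set was 49.5% of far intronic peaks (Wilson interval 44.8 to 54.3%) and 50.1% of other peaks (48.3 to 51.8%), a difference of -0.52 percentage points (two-sided Fisher's exact p = 0.877). It was 48.6% for intronic peaks within 5000 bp of a coding TSS, 51.3% for promoter peaks and 50.4% for intergenic peaks, with an adjusted Fisher's exact p of 1 in each comparison with far intronic peaks. Of the 100 strongest peaks 12 were far intronic, as were 29 of the strongest 300.

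Nearly all peaks, far intronic or not, had an entry in each replicate's own list. The lists of replicates 1 and 2 held 423 and 425 of the 426 far intronic peaks, against 2947 and 2938 of the 2975 others. The members' entries had signals of 16.5 to 475 (median 71.7) in replicate 1 and 18.6 to 393 (median 62.2) in replicate 2. The 3 peaks missing from replicate 1 were in Smr (signal 268), spen (208) and lncRNA:CR44833 (152), and the 1 missing from replicate 2 was in plh (103). Among the 3401 leading entries of each replicate, 348 members (81.7%) were found in replicate 1 and 338 (79.3%) in replicate 2. Both leading lists held 273, or 64.1% (59.4 to 68.5%), against 64.3% of other peaks (62.5 to 66.0%), a difference of -0.18 points (two-sided Fisher's exact p = 0.957). In neither leading list were 13 members, and the strongest of these was in InR (signal 110). The reads of both replicates went into the choice of the set, so these shares compare classes within it and do not test recurrence independently.

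**Figure D1:**
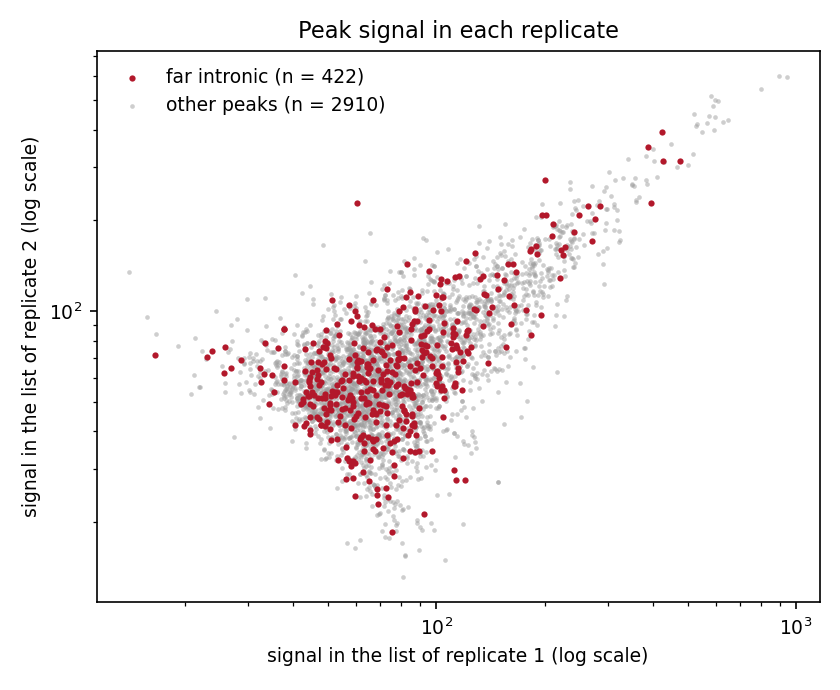
Signal of each reproducible peak in the list of replicate 1 (x axis, log scale) and of replicate 2 (y axis, log scale), for the 422 far intronic peaks (red) and 2910 other peaks (grey) found in both lists. Each point is 1 peak. The far intronic peaks lie within the cloud of the others and reach 475 in replicate 1 and 393 in replicate 2.

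The far intronic share was higher further down the lists. In the list called on pooled reads, cut into bins of 3401 entries by falling signal, it was 12.5, 15.1, 16.2, 18.6, 20.1, 21.4, 20.9 and 22.0%, and 23.6% in the last, smaller bin of 2792. That end of the list lies near the 23.04% of arm bases that meet the same rule. Replicate 1 alone gave 12.7% in its first bin and 22.96% in its last, and replicate 2 alone 12.4% and 20.6%. The promoter share was 47.1% in the first pooled bin and 15.3% in the last.

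**Figure D2:**
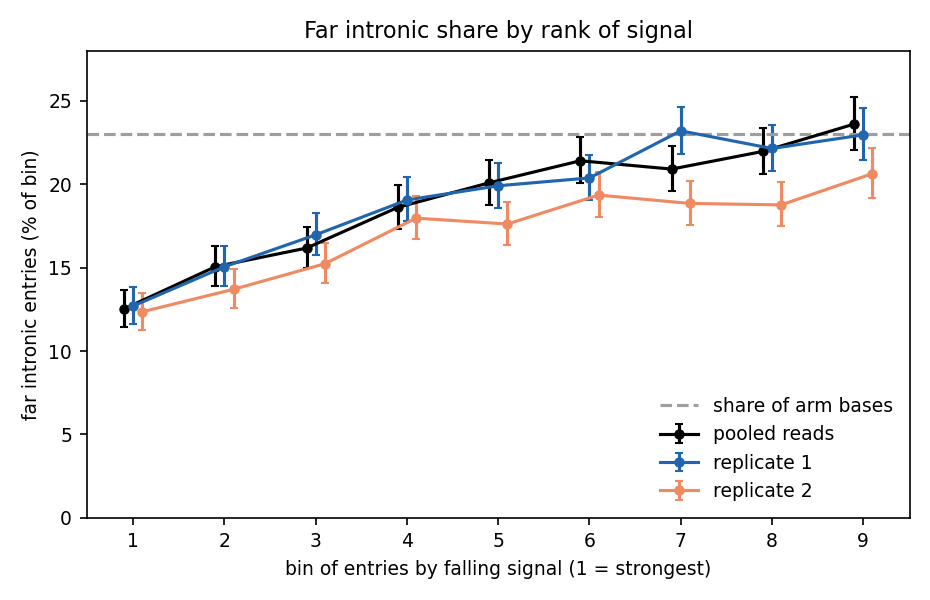
Share of entries that are far intronic (y axis, percent of the bin) in 9 bins by falling signal (x axis) for the pooled list and each replicate, with Wilson 95% intervals. The dashed line is the 23.04% of arm bases that meet the rule. All 3 lists start between 12.4 and 12.7% and end between 20.6 and 23.6%.

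The 20 strongest far intronic peaks lay in genes of several kinds, and Hr4 held 2 of them. All 20 were in both leading lists, at rank 207 or better in replicate 1 and 182 or better in replicate 2. The strongest was in the first intron of dnr1, which encodes an inhibitor of the caspase Dredd, at chr2R:22569840-22570175, with a signal of 815 (425 in replicate 1 and 393 in replicate 2). Its nearest coding TSS was that of CG11362, 7707 bp away. The next was in CG32486, at chr3L:3060663-3060959, with a signal of 782 (475 and 316 in replicates 1 and 2) and CG16753 as the nearest start. For 6 of the 20 the nearest coding TSS was that of another gene than the host. Over all members this held for 138 of 426 (32.4%), and for the other 288 the nearest start was the host's own.

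The next in order were in Hr4, Eip75B and tai, which are described with the ecdysone response. Genes of signalling and chromatin were scattered among the rest. Mi-2, the remodelling ATPase of the NuRD complex, shared a peak with the overlapping gene Su(Tpl), an elongation factor (signal 509; 286 and 223 in replicates 1 and 2). Raf, the kinase of the MAP kinase cascade, held a peak of 441 (271 and 170), and Ptp61F, a tyrosine phosphatase, one of 410 (211 and 194) whose nearest start was that of SA2. Psc of the Polycomb group held one of 387 (228 and 163), and shn, a zinc finger factor of Dpp signalling, one of 377 (226 and 153). All 5 were in both leading lists, and levels of separate lists cannot be compared.

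Others among the 20 included tara, a nuclear protein linked to trithorax group function (459; 200 and 272), the corepressor gene sbb (409; 201 and 208), ush, the gene of a cofactor of GATA proteins (384; 223 and 160), and kirre, an adhesion molecule of muscle founder cells (357; 190 and 165, nearest start CG4116). Cad86C encodes a cadherin (479; 275 and 203) and Pgant9 a glycosyltransferase (430; 242 and 183). The peak in CG42238 had a signal of 486 (265 and 223) at 40553 bp from a coding TSS. In the non-coding gene lncRNA:CR43337 it was 471 (249 and 208), with Reg-2 as the nearest start. None of the 20 but that of Glut4EF and CG46467 held a GATA word.

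A small set of genes held many of the far intronic summits. Of 13968 protein-coding genes, 1855 had any far intronic sequence, and 234 of these (12.6%) held a far intronic summit. A single summit was held by 144 genes, 2 by 46 and 3 or more by 44, and the 44 accounted for 189 of the 426 summits. Counts followed length. A summit was held by 3.16% of 854 genes with under 5 kb of such sequence, 16.5% of 568 with 5 to 20 kb, 24.1% of 299 with 20 to 50 kb and 30.6% of 134 with more. The median span of the genes with a summit was 40654 bp, against 21470 bp for all 1855.

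First introns held a larger share of summits than of bases. Of the 369 in canonical introns, 133 or 36.0% (31.3 to 41.1%) were in first introns, which make up 20.6% of the far intronic bases in such introns. No test was made of this difference. The bases were not matched for distance from a coding TSS, with which density fell. Summits of a gene were also counted separately, among them the 9 of tara in its only canonical intron. The introns concerned were long, with a median of 18891 bp and a range of 1283 to 132737 bp.

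The gene pair Glut4EF and CG46467 held the most. Glut4EF encodes a zinc finger protein related to a mammalian regulator of a glucose transporter gene. The pair shared 14 summits in 86947 bp of far intronic sequence, where replicate 1 had 10 leading entries and replicate 2 had 17. The strongest, at chr3R:9968255-9968471, had a signal of 387 (197 and 208 in replicates 1 and 2) and held a GATA word, with Art4 as the nearest coding start. Signals of the other 13 ran from 91.5 to 268. The summits were spread over introns 1, 2 and 4.

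Next came tai and tara with 9 each, Eip75B with 8, and EcR, Eip74EF, Smr, kirre and sbb with 6. E23 and Hr4 held 5, as did Mnt, Tet, Tis11 and jing. Per length tara stood highest of these, with 55.8 summits per 100 kb of far intronic sequence, and kirre lowest with 2.58. In tara the signals ran from 96.97 to 458.9, all in its 1 canonical intron. Smr encodes a corepressor that binds the unliganded ecdysone receptor. Its 6 summits had signals of 97.4 to 268, and the leading lists held 4 and 5.

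**Figure D3:**
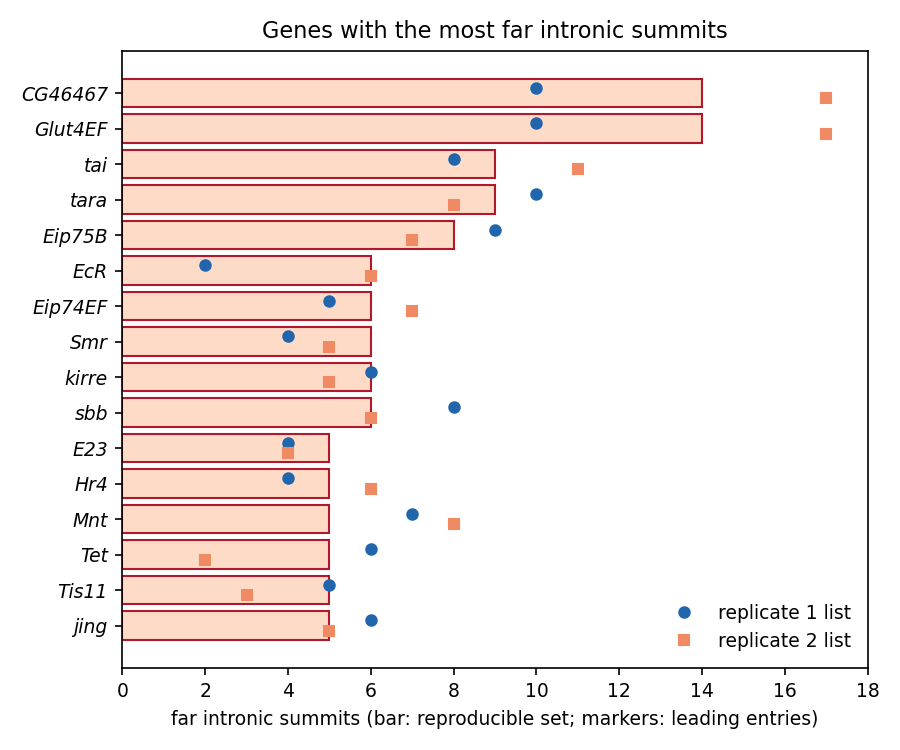
Number of far intronic summits (x axis) in the 16 protein-coding genes with the most (y axis), in the reproducible set (bars) and in the leading entries of replicate 1 (circles) and replicate 2 (squares). Glut4EF and CG46467 overlap and share 14 summits, with 10 and 17 in the replicates, and no other gene exceeds 9 in the set.

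Genes of the ecdysone response held far intronic summits in 13 of the 22 that had such sequence (59.1%), against 12.6% of all protein-coding genes with such sequence. Its median length was 13946.5 bp in the 22 genes, against 6025 bp in all of those genes. The 22 held 48 of the 426 summits (11.3%) in 1.65% of far intronic sequence, which is 91.9 per Mb (67.8 to 121.9) against 13.4 per Mb overall. The interval treats summits of a gene as independent, though tai held 9 of the 48, Eip75B 8, and EcR and Eip74EF 6 each. The leading list of replicate 1 held 41 summits in 12 of the genes and that of replicate 2 held 50 in 13. The list had been chosen with earlier results of these data known, so its count is a description and no test was made.

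Of the receptor and its partners, EcR itself held 6 summits, with signals of 95.7 to 178. The strongest was at chr2R:6120507-6120916 (115 and 63.0 in replicates 1 and 2). The 2 replicates differed here, with 2 of the leading entries in replicate 1 and 6 in replicate 2. The weakest of the 6 had a signal of 16.5 in replicate 1 and 71.8 in replicate 2. The coactivator gene tai held 9 summits, led by one at chr2L:9205105-9205353 in its second intron, 28896 bp from a coding start, with a signal of 623 (396 and 228). A second summit lay 203 bp from it, and in the list of replicate 2 both fell in the same entry. The other tai summits had signals of 94.9 to 246. E23, an ecdysone-induced transporter, held 5 between 96.7 and 201, the strongest with 95.6 and 93.8 in the replicates.

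Among early genes, Eip75B, which encodes a nuclear receptor, held 8 summits. The strongest, at chr3L:18011720-18012049 in the third intron, had a signal of 734 (388 and 351), and the other 7 had 98.8 to 198. The early gene Eip74EF, which encodes an Ets factor, held 6 with signals of 108 to 281, led by the peak whose window is printed (128 and 156). So the 2 early loci had several summits each, and only Eip75B had one among the 20 strongest.

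The tagged gene held 2 far intronic summits, both with a GATA word. The stronger, at chr3R:22003606-22003726, had a signal of 217 (104 and 111), and the other, at chr3R:21954369-21954778, had 128 (61.6 and 60.2). The GFP exon is inserted in this gene, and whether the insertion bears on these values was not tested.

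Of the later nuclear receptors, Hr4 held 5 summits. The strongest, at chrX:1951790-1952057, had a signal of 767 (426 and 315), a second had 375 (210 and 177) and the others 269, 138 and 95.4. Hr3 held 2, with signals of 219 (127 and 102) and 130, in a stretch that other genes overlap. Single summits were found in Hr38 (127; 81.2 and 47.1), Hr39 (121; 67.7 and 34.6) and ftz-f1 (112; 67.7 and 45.9), the receptor gene that gives prepupae their competence for the next ecdysone pulse. The knirps-related gene knrl held 1 of 188 (119 and 68.3), and the bZIP gene vri 1 of 119 (45.4 and 78.2). Those of Hr39 and vri were each in 1 leading list only. In this group Hr4 was high in both replicates, and the single summits other than that of knrl were below the set's median signal of 129.4.

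Listed genes with such sequence and no far intronic summit were br, Eip63E, Eip63F-1, Eip78C, ImpE1, DopEcR, crol, dsf and svp. Of such sequence br had 43976 bp and Eip63E 69554 bp. Peaks of other classes lay in 5 of the 9, with 4 in br, 2 each in Eip78C, Eip63F-1 and crol, and 1 in Eip63E.

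Signalling and patterning lists stood above the overall density, the patterning list with most of its summits in tara and sbb. Genes of signalling kinases and growth held summits in 11 of 20 (55.0%), with 21 summits at 68.9 per Mb (42.7 to 105). They were led by Raf, by Myc with a signal of 270 (184 and 83.4), by msn with 231 (107 and 126) and by bun with 199 (97.85 and 101.1). InR, the insulin receptor gene, held 4 summits of up to 166 (115 and 64.9). Appendage and body patterning genes held them in 9 of 41 (22.0%), with 24 summits at 32.3 per Mb (20.7 to 48.1), led by tara, sbb, the Hox gene Antp with 254 (161 and 91.1) and Egfr with 174 (103.5 and 70.6). Of the 24 summits tara held 9 in 16125 bp and sbb 6 in 35559 bp, out of 0.743 Mb of such sequence in the list. The interval treats summits of a gene as independent. The density of this list without these genes was not computed, so 32.3 per Mb does not describe its other genes.

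The axon guidance and ion channel lists had a lower density. Axon guidance and adhesion genes held summits in 5 of 38 (13.2%), a share close to the 12.6% of all protein-coding genes, with 11 summits at 5.84 per Mb (2.91 to 10.4). Of these 11 summits 6 were in kirre, which is also on the muscle list. The other genes were kuz, a metalloprotease gene (309; 163.5 and 143.8), Sema1a (166; 91.2 and 74.4), Fas3 (96.6; 50.8 and 49.1) and Dscam1 (91.3; 43.0 and 41.7), whose summit was in neither leading list. Ion channel and receptor genes held 1 in 1 of 23 (4.35%), in the kinase gene Pka-C1 (97.1; 47.2 and 57.0), at 1.54 per Mb (0.0389 to 8.56). The leading list of replicate 1 held 0 summits in these genes and that of replicate 2 held 2 in 2 genes. Both intervals lie below the overall 13.4 per Mb, and Pka-C1 is also on the kinase list. Which tissues express these genes in prepupae was not measured here.

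Each of the other lists had 5 or fewer genes with a summit. Their shares stand against the same 12.6% of all protein-coding genes with such sequence, without regard to its length. Chromatin regulators held summits in 5 of 15 (33.3%), at 43.1 per Mb (18.6 to 85.0), namely Mi-2, Psc, trx of the trithorax group (328; 184 and 161), psq (168; 113 and 57.7) and Hr39, which the ecdysone list also holds. Of the 3 GATA factor and partner genes with far intronic sequence 2 had a summit, ush with 4 and grn with 1 (146; 88.2 and 58.4), at 90.4 per Mb (29.4 to 211). The fat body list had 1 of 5, Glut4EF alone, and 2 of 5 in the leading list of replicate 1. Muscle genes had 4 of 20, at 18.9 per Mb (9.06 to 34.8, an interval that holds the overall 13.4), and these were kirre, Zasp52 (152; 70.003 and 87.3), twi (133; 64.8 and 62.5) and mbc (97.1; 43.4 and 53.9). Genes of juvenile hormone and temporal identity had 2 of 11, chinmo (129; 70.3 and 58.3) and mamo (118; 60.7 and 61.0), at 9.96 per Mb (1.21 to 36.0), which also holds it. The clock list had 2 of 6, sgg (144; 70.002 and 79.0) and vri, and 1 of 6 in the leading list of replicate 1.

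**Figure D4:**
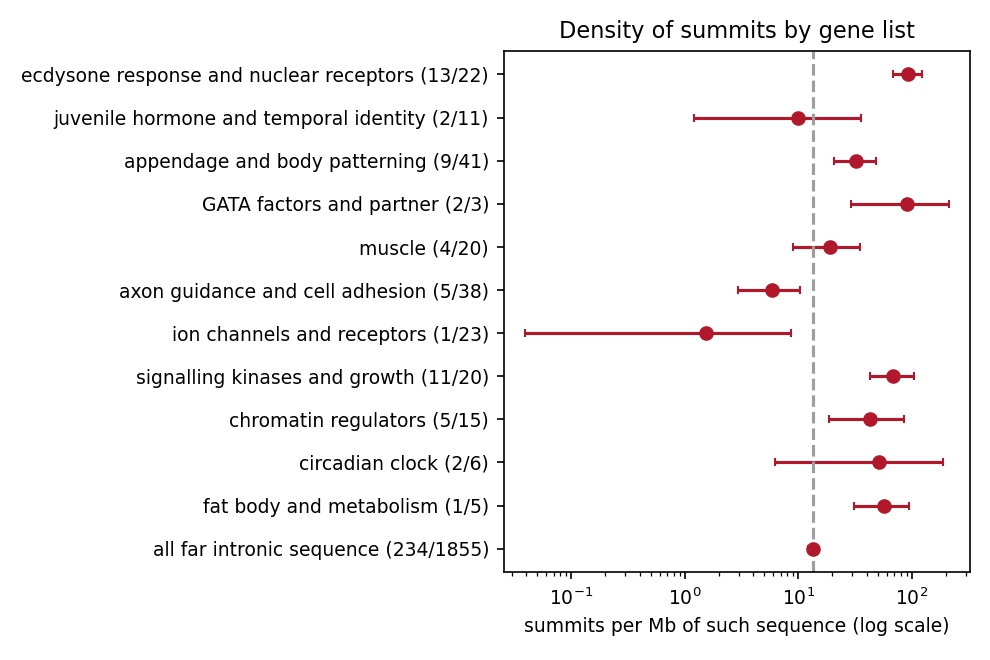
Far intronic summits per Mb of far intronic sequence (x axis, log scale) in the genes of 11 lists (y axis), with exact Poisson 95% intervals. In brackets is the number of genes with a summit over the number with such sequence, and the dashed line is the overall 13.4 per Mb. The ecdysone list stands at 91.9 and the ion channel list at 1.54. All intervals treat summits of a gene as independent.

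Sequence words were counted within 50 bp of each summit and in a window of the same size centred 500 bp away. The GATA word was found at 33 of the 426 summits, or 7.75% (5.57 to 10.7%). It was found in 18 windows (4.23%) on the side of higher coordinates and in 13 (3.05%) on the side of lower ones. Against the higher side 31 peaks had it at the summit alone and 16 in the flank alone (McNemar exact p = 0.0400, adjusted over 17 words 0.340). Against the lower side the numbers were 32 and 12 (McNemar exact p = 0.00366, adjusted 0.0622). None of the 17 preset words passed an adjusted McNemar test on the higher side (0% called), and 2 had an unadjusted p under 0.05. The second was the word of the wing factor Scalloped, GGAATGT, at 8 summits (1.88%) and in 0 flanks on the higher side (McNemar exact adjusted p = 0.133). On the lower side 2 flanks had it (McNemar exact p = 0.109, adjusted 0.866). In the leading peaks of replicate 2 alone, without replicate 1, the GATA word did pass, with a difference of 5.24 points (McNemar exact adjusted p = 0.0388), and in those of replicate 1 alone it was 3.47 points (adjusted McNemar p = 0.536).

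The GATA word was then compared between classes of peak. It was found at 7.75% of far intronic peaks and at 6.59% of other peaks (5.75 to 7.54%), a difference of 1.16 points that was not called (Fisher's exact p = 0.354, adjusted 0.963). The near intronic share was 9.21%, the promoter share 5.18% (Fisher's exact p = 0.0464, adjusted 0.363) and the intergenic share 4.63% (adjusted Fisher's exact p = 0.574). Of the 17 words 0% differed between far intronic and other peaks after adjustment. The 1 with an unadjusted p under 0.05 was the homeodomain word TAATTA, at 6.34% of far intronic and 9.31% of other summits (Fisher's exact adjusted p = 0.774).

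The median signal was 129.1 over the 33 members with the GATA word and 129.3 over the 393 without it, and this was not tested. The median GC content of the window was 40.6% with the word and 35.6% without it. By signal, the word was found in 9.86% of the strongest 142 members, 4.23% of the middle 142 and 9.15% of the weakest 142. The strongest with it was that of Glut4EF and CG46467, which ranked 16 among the members. The 33 also included summits in Myc, Smr, msn, bun, chinmo, tai, E23 and Mnt, in Oatp74D, which encodes an ecdysone importer, and in lncRNA:let7C, which gives rise to the let-7 microRNAs. These names were picked after their values were seen. Only words within 50 bp of the summit were counted. The nearest lay a median of 26 bp from it, near the middle of that range, so this distance is no sign of centring. The word was on the forward strand 21 times and on the reverse 16 times.

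**Figure D5:**
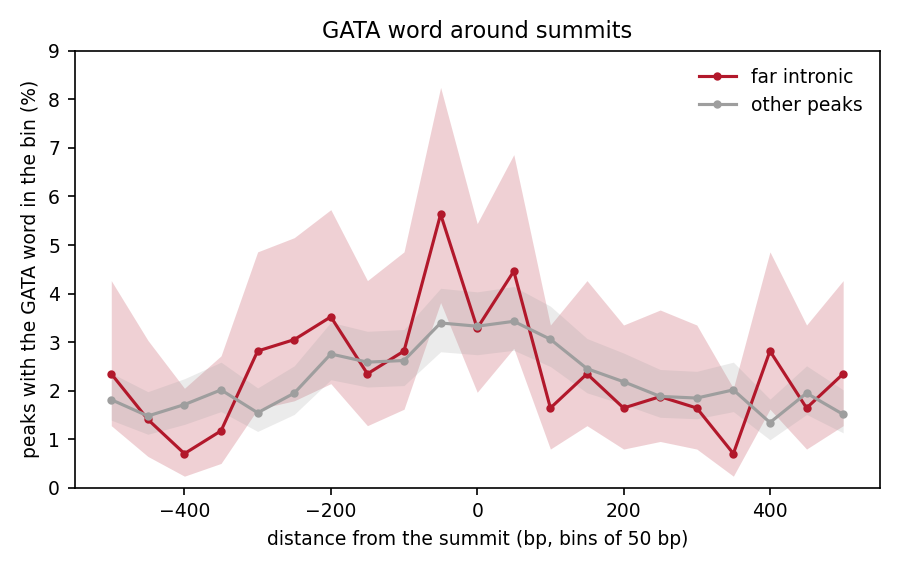
Share of far intronic peaks (red) and other peaks (grey) with the GATA word in each bin of 50 bp (y axis, percent) by distance from the summit (x axis, bp), with Wilson 95% intervals as bands. The far intronic curve is highest in the bins at -50 bp (5.63%) and 50 bp (4.46%), and its band overlaps that of other peaks in those bins. In the central bin it is 3.29%, and in the bin at -200 bp 3.52%.

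All 2080 6-mers, each counted with its reverse complement, were tested the same way, and 3 were called more frequent at summits than in the higher flank (0.144%). ATATAA was found at 19.7% of summits and 8.92% of flanks (McNemar exact adjusted p = 0.0153), ACAATC at 9.15% and 2.58% (adjusted McNemar p = 0.0291), and ACAGTG at 8.22% and 1.88% (adjusted McNemar p = 0.0291). None was called less frequent, and at an unadjusted p under 0.05 there were 86 higher and 105 lower. None of the 3 was called against the lower flank, where AATATA was the only call, at 21.6% and 8.92% (McNemar exact adjusted p = 0.00225). The leading peaks of replicate 1 alone gave 6 calls and those of replicate 2 alone gave 0.

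The next 8 6-mers tied at an adjusted McNemar p of 0.101. TGATAA, which begins the TGATAAG form of the GATA word and is absent from the AGATAAG form, was named after its value was seen. It was found at 14.8% of summits and 7.04% of flanks, and ATAAGA, which overlaps it, at 10.8% and 4.23%. AATCAG was found at 8.45% of summits and 2.82% of flanks, AAGAAA at 20.4% and 11.5%, and TATAAA at 20.2% and 11.7%. CGCAGA was found at 0.939% of summits and 5.40% of flanks, ATGATG at 2.11% and 7.28%, and TAGCCA at 1.64% and 6.57%. None of these 8 passed the threshold.

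Base composition within 50 bp of the summit differed between far intronic and intergenic peaks, but not over whole peaks. The share of windows above the median GC content of the set, 34.7%, was 53.5% of far intronic peaks (48.8 to 58.2%) and 40.6% of intergenic peaks (35.7 to 45.7%), higher by 12.9 points (Fisher's exact p = 0.000357, adjusted over 16 comparisons 0.00286). This call was lost over whole peaks, where the difference was 1.57 points (Fisher's exact p = 0.668), and with the 1700 strongest peaks, where it was 10.04 points (Fisher's exact p = 0.0551). Against other peaks the share was 53.5% and 49.1% (Fisher's exact p = 0.0876, adjusted 0.350). The near intronic share was 54.6% and the promoter share 46.9% (Fisher's exact p = 0.0164, adjusted 0.0873).

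Closeness to another summit was compared between classes, and near intronic peaks were the class that differed from far intronic ones. Another summit lay within 2000 bp of 150 of the 426 (35.2%, interval 30.8 to 39.9%) and of 421 of the 901 near intronic ones (46.7%, 43.5 to 49.99%), lower by 11.5 points (Fisher's exact p = 8.68e-05, adjusted over 16 comparisons 0.00139). A close pair of peaks counts for both of them, and the p-values and intervals of this measure make no allowance for that. With the leading peaks of replicate 1 alone the difference was -15.6 points, and with those of replicate 2 alone it was -7.12 points. Among the 1700 strongest peaks it was -4.14 points and was not called (Fisher's exact p = 0.299). By the rule, a summit within 500 bp of a coding TSS cannot lie within 2000 bp of a far intronic one. It can lie that close to a near intronic one, and promoters hold 47.1% of all peaks. The 2 classes therefore differ by definition in the neighbours they can have, and the part of this in the difference was not tested.

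A neighbour within 2000 bp was found for 31.7% of promoter peaks (adjusted Fisher's exact p = 0.578) and 35.1% of intergenic peaks (adjusted Fisher's exact p = 1), against which the far intronic 35.2% was not called. Against all other peaks, of which 37.0% had a neighbour, the difference was -1.80 points (Fisher's exact p = 0.485). Its direction differed between replicates, at -6.17 points without replicate 2 (Fisher's exact p = 0.0140) and 3.09 points without replicate 1 (Fisher's exact p = 0.236). Of the members, 132 had another member within 2000 bp, so that the 426 fell into 350 runs. In 32 the nearest summit was within 410 bp, the most common peak width, so that the entries themselves can overlap.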

How the data were processed

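Eip93F-GFP was immunoprecipitated from whole prepupae in 2 biological replicates, and nothing in the labels says whether these came from separate crosses or days. Per the deposited notes, the authors made lists of peaks and background from each replicate's alignment and from both alignments together, with 1 further input that the notes do not describe, and derived the reproducible set from these lists by the irreproducible discovery rate. Each list has 30000 entries. The signal per peak and its −log10 (q value) are the authors' own, as deposited. The signal is comparable only within a list, and the −log10 (q) was not used. Which aligner and peak caller were used is not given in the sources used here. Reads were not analysed, so depth is unknown, and intervals (95%, Wilson for shares, exact Poisson for densities) cover counting error only. The lists on the dm3 build were not used here.

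Each dm6 summit was located on genes of Ensembl release 115, from which transposable elements had been removed. The other classes were promoter (within 500 bp of any TSS), exon, near intronic (up to 5000 bp from a coding TSS) and intergenic. All 3401 reproducible peaks were found in the pooled list, and 0 entries of the replicates had equal position and signal. A member was found in a replicate when its summit lay in an entry, and leading entries are the 3401 with the highest signal. Classes were compared by two-sided Fisher's exact tests, 16 in the family, adjusted by the Benjamini-Hochberg method, as were the 17 words and 2080 6-mers. Summits and flanks were compared by McNemar's exact test, paired by peak. These p-values treat peaks as independent, though peaks of a gene share a locus and close peaks are each other's neighbours. Only the 6-mer test was tried on simulated data, with windows of independent bases and an implanted word. Such windows lack the repeats and shared loci of real peaks. The counting behind Fisher's test was checked on a fixed example. Calls needed an adjusted p under 0.05.

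The peak class, the 11 gene lists and the words were chosen with earlier results of these data known. Listed symbols absent from the annotation were left out of the counts, so that 37 of 40 matched in the ecdysone list and 47 of 49 in the patterning list. Dl of the patterning list was left out in this way, though the annotation holds it as Delta, with 1 far intronic summit (signal 120). Named were the hosts and nearest coding TSS of the 20 strongest members, the 12 coding genes with the most summits, every ecdysone list gene with a summit, the leading 4 of each other list and the 10 6-mers with the smallest adjusted p, with ties broken by name. That rule gave 14 sequences, of which 7 are printed, and the 4 with repeated GATA words were added after the words had been counted. The 6-mer TGATAA, tied with the last of the 10, and other genes were named after their values were seen. Alternatives were single replicates, other distances, gene spans, windows, flanks and neighbour limits, the 1700 strongest peaks, 1 peak per run, and transposable elements kept as genes. Python 3.11.15, pandas 2.3.3, SciPy 1.17.1 and matplotlib 3.10.9 were used.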

Additional observations from a re-analysis of the deposited data

How the results depend on the processing

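No paired analysis of samples was possible because there is only 1 group. The far intronic share was 12.4 to 12.7% with 1 replicate left out, 20.4% with a limit of 2500 bp and 5.73% with 10000 bp. The difference in signal from other peaks was -2.10 to 0 points with 1 replicate left out, and was not called in any of the 6 alternatives. The difference in both leading lists was -0.893 to 0.0431 points with 1 replicate left out, 0.392 over 10000 bp and 0.693 among the 1700 strongest peaks. It was -2.80 points with the leading 1700 entries (Fisher's exact p = 0.271) and -1.20 points with at least 1 bp of overlap. The GATA difference from flanks was 3.47 to 5.24 points with 1 replicate left out. It was called without replicate 1 (5.24 points), with a limit of 2500 bp (4.76 points) and with windows of 100 bp (7.28 points). In the other 9 alternatives it was not called, among them windows of 25 bp (0.704 points) and the 1700 strongest peaks (3.79 points). Its difference from other peaks was 1.15 to 2.41 points with 1 replicate left out and -0.00718 with windows of 25 bp. The 6-mer calls numbered 3 in the main count and 0 to 6 with 1 replicate left out. There were 27 with a limit of 2500 bp, 14 with windows of 100 bp, 1 with 1 peak per run and 1 against the lower flank. There were 0 with 10000 bp, with spans of coding genes alone, with the 1700 strongest peaks, with windows of 25 bp and with flanks at 1000 bp. Unadjusted Fisher's exact tests of the other class differences gave the following. The GC difference from other peaks was 3.07 to 5.23 points with 1 replicate left out, and was called without replicate 1 (5.23 points), with 100 bp (7.30 points) and with whole peaks (7.90 points). From intergenic peaks it was 11.2 to 13.3 points with 1 replicate left out, 10.04 with the 1700 strongest and 1.57 over whole peaks. The neighbour difference from other peaks was -6.17 (called, without replicate 2) to 3.09 points with 1 replicate left out, 0.0166 with a limit of 2500 bp and 2.21 with the 1700 strongest, and was called within 1000 bp (-4.17 points). From near intronic peaks it was -15.6 to -7.12 points with 1 replicate left out and -4.14 with the 1700 strongest. The cause of these changes was not tested. Every alternative for the comparisons with near intronic and intergenic peaks was chosen after seeing the data, as was keeping transposable elements as genes, which changed no call.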
